A study of Mus musculus with 18 samples.

Results

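Insulin signalling and glucose uptake in muscle were followed through 9 genes, found by symbol in every library among the 48709 genes listed by the authors: Insr, Igf1r, Irs1, Irs2, Pik3r1, Akt2, Slc2a4, Tbc1d1 and Tbc1d4. Insulin and the insulin-like growth factors bind receptor tyrosine kinases at the cell surface, and the activated receptors phosphorylate docking proteins that recruit phosphoinositide 3-kinase. The lipid signal of this kinase activates AKT, which phosphorylates the Rab GTPase-activating proteins TBC1D1 and TBC1D4 and so releases vesicles carrying the glucose transporter GLUT4 to the cell surface. Skeletal muscle takes up most of the glucose that insulin clears from blood after a meal.

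RNA from whole quadriceps of 18 mice was sequenced, 1 library per mouse, in 6 groups. Wild type (WT) mice were C57BL/6J, and dyW mice (DYW in the labels) carried the strain name B6.129S1(Cg)-Lama2tm1Eeng/J, in which Lama2, the gene of the basement membrane protein laminin alpha 2, is disrupted, a model of a congenital muscular dystrophy. The labels call the mutant colony hemizygous and do not give the alleles of each mouse. Of the untreated mice, labelled 5 weeks old, 3 were WT and 4 were dyW. The other mice carried an age label of 3 weeks: 3 WT PBS, 3 dyW PBS, 3 dyW TD139 and 2 WT TD139 mice. By the sex labels every group held both males and females, and the main fits had no term for sex. TD139 is an inhibitor of the lectin galectin-3, and PBS is its vehicle going by the library names. The sampling protocol gives 5 weeks as the age at collection for all mice, so the age of the second cohort is uncertain, and the labels give no dose, route or duration of TD139.

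The libraries held 15.8 to 45.2 M reads in exons, the shallowest being dyW PBS replicate 1. Lama2 was lower in dyW than in WT in each of the 3 genotype comparisons, for example at 0.707 ± 0.119 RPKM (SD, n = 4) against 4.75 ± 0.279 (n = 3) in untreated mice. RPKM, as deposited by the authors, scales the reads of a gene to its exon length and to the size of the library. Summed over 6 mature fibre markers (Ckm, Acta1, Myh4, Myh1, Tnnt3 and Mb), every library held 30360 to 61442 RPKM, and the sum over 3 liver genes was at most 1.14. Several libraries stood apart from their group. WT PBS replicate 1 had 1955 RPKM of 6 slow fibre markers, against 6.09 and 3.59 in the other WT PBS libraries, and 582 RPKM of 4 Schwann cell markers, against 45.8 and 30.8. The untreated dyW replicates 3 and 4 had 1666 and 2048 RPKM of slow fibre markers, against 61.5 and 244 in replicates 1 and 2. Untreated WT replicate 1 had 109 RPKM of slow fibre markers, against 0.784 and 8.13 in the other untreated WT libraries. It also had 846 RPKM of 6 adipocyte markers, against 205 and 328.

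All 9 genes were counted from reads that mapped to a single place. The positions that follow are those deposited, on mm10. Of the receptors, Insr (ENSMUSG00000005534) lies at chr8:3122061-3279617 and Igf1r (ENSMUSG00000005533) at chr7:67952827-68233668. Of the docking proteins, Irs1 (ENSMUSG00000055980) lies at chr1:82233101-82291416 and Irs2 (ENSMUSG00000038894) at chr8:10984681-11008458. The kinase genes are Pik3r1 (ENSMUSG00000041417, chr13:101680563-101768217) and Akt2 (ENSMUSG00000004056, chr7:27591552-27640826). The transporter gene Slc2a4 (ENSMUSG00000018566) lies at chr11:69942539-69948188, Tbc1d1 (ENSMUSG00000029174) at chr5:64156305-64351486 and Tbc1d4 (ENSMUSG00000033083) at chr14:101442360-101609191. Exons of Gm9747 overlap Irs1 and exons of 9530052E02Rik overlap Irs2 on the opposite strand, and whether strand was used in counting is not given in the sources used here. Per library, Gm9747 had 0 to 1 reads beside 1619 to 9863 for Irs1, and 9530052E02Rik had 1 to 14 beside 208 to 2219 for Irs2.

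Irs1 and Irs2 encode the docking proteins that insulin receptors phosphorylate, and over the 18 libraries they had the widest ranges of the 9 genes, so the 250 bases before their RefSeq start sites (GRCm38.p6) are shown here. Irs1 is read on the minus strand at chr1:82291440-82291689, and Irs2 on the minus strand at chr8:11008930-11009179, a start upstream of the deposited end of the gene. Capitals mark CACGTG, the E-box, and CAAAACA or its reverse complement TGTTTTG, a forkhead-type insulin response element.
Irs1: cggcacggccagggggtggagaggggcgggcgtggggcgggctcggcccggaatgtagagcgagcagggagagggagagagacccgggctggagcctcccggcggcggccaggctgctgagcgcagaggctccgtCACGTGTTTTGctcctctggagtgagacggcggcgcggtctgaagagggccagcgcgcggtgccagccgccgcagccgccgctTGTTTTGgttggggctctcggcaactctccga
Irs2: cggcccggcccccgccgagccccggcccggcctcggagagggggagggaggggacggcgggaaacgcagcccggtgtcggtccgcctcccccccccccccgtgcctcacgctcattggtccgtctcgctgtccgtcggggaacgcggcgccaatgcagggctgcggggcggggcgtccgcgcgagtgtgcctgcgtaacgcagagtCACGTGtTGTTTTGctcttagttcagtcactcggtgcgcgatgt
In the Irs1 window an E-box started 115 bases before the start site, sharing bases with a TGTTTTG that started at 111, and a further TGTTTTG started at 32. In the Irs2 window the E-box started 44 bases before the start and the TGTTTTG at 37. Both motifs were searched on both strands and chosen after these windows had been read. CACGTG was held by 6.02% and CAAAACA by 5.56% of 32851 windows of the same length, and 0.295% held both. The forkhead motif GTAAACA (held by 3.17% of windows), the CCAAT box (33.8%) and the cyclic AMP response element TGACGTCA (1.55%) were searched as well. Over both strands, CCAAT was found 2 times in the Irs2 window, where it is left in lower case, and 1 time in a Pik3r1 window, and the other motifs of this search were found in no window of the 7 genes. RefSeq windows matched 7 of the 9 genes, 12 windows in all, and no window of Igf1r, Akt2, Pik3r1, Tbc1d1 or Tbc1d4 held either motif. A match describes letters in this window and nothing of any factor bound there.

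Per length of transcript, Slc2a4, which encodes GLUT4, had the highest level of the 9 genes in every group. Its deposited RPKM was 97.6 ± 17.3 in untreated WT (n = 3), 86.2 ± 14.1 in untreated dyW (n = 4), 78.0 ± 2.07 in WT PBS (n = 3), 66.7 ± 17.5 in dyW PBS (n = 3), 70.8 ± 3.37 in WT TD139 (n = 2) and 71.3 ± 1.595 in dyW TD139 (n = 3). Akt2, the AKT isoform most tied to glucose uptake, came next, with group means of 25.0 to 34.0 RPKM. Irs1 was the third in all groups, with means of 9.32 to 25.1 RPKM. The libraries of a group did not overlap between Slc2a4 and Akt2, nor between Akt2 and Irs1, in any group. Irs1 overlapped with the next gene, Insr, only in untreated dyW. Below Irs1, neighbours in the order overlapped, except Pik3r1 and Igf1r in untreated WT and Irs2 and Igf1r in dyW TD139. Igf1r was lowest in every group, at group means of 1.34 to 2.36 RPKM, and Insr, the other receptor gene, had means of 5.12 to 9.45 RPKM.

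Untreated mice were compared by genotype first. Irs1, Tbc1d4, Insr and Slc2a4 fell in untreated dyW muscle, and none of the 9 genes rose. Counts were tested with edgeR's quasi-likelihood F-test after TMM scaling, which corrects for a few very abundant transcripts, and p-values were adjusted by Benjamini-Hochberg over all genes tested with a threshold of 0.05. Of 14846 genes tested, 49.8% passed, 25.1% lower and 24.7% higher, so that 4 lower calls among 9 genes stand on a high background. An unadjusted p under 0.05 was reached by 6 of the 9 genes and by 56.8% of all genes. The median log2 fold change was −0.72 over the 9 genes and 0.03 over all genes. Levels of the 9 genes from here on are TMM-scaled RPKM, with the library size taken after TMM scaling, unless deposited RPKM is named. RPKM written alone, as for markers and other pathway genes, is the deposited RPKM. The edgeR log2 fold changes come from TMM-scaled fits, so they can differ from the ratio of deposited levels printed beside them. In whole muscle, fewer cells of a type and less RNA per cell cannot be told apart.

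**Figure D1:**
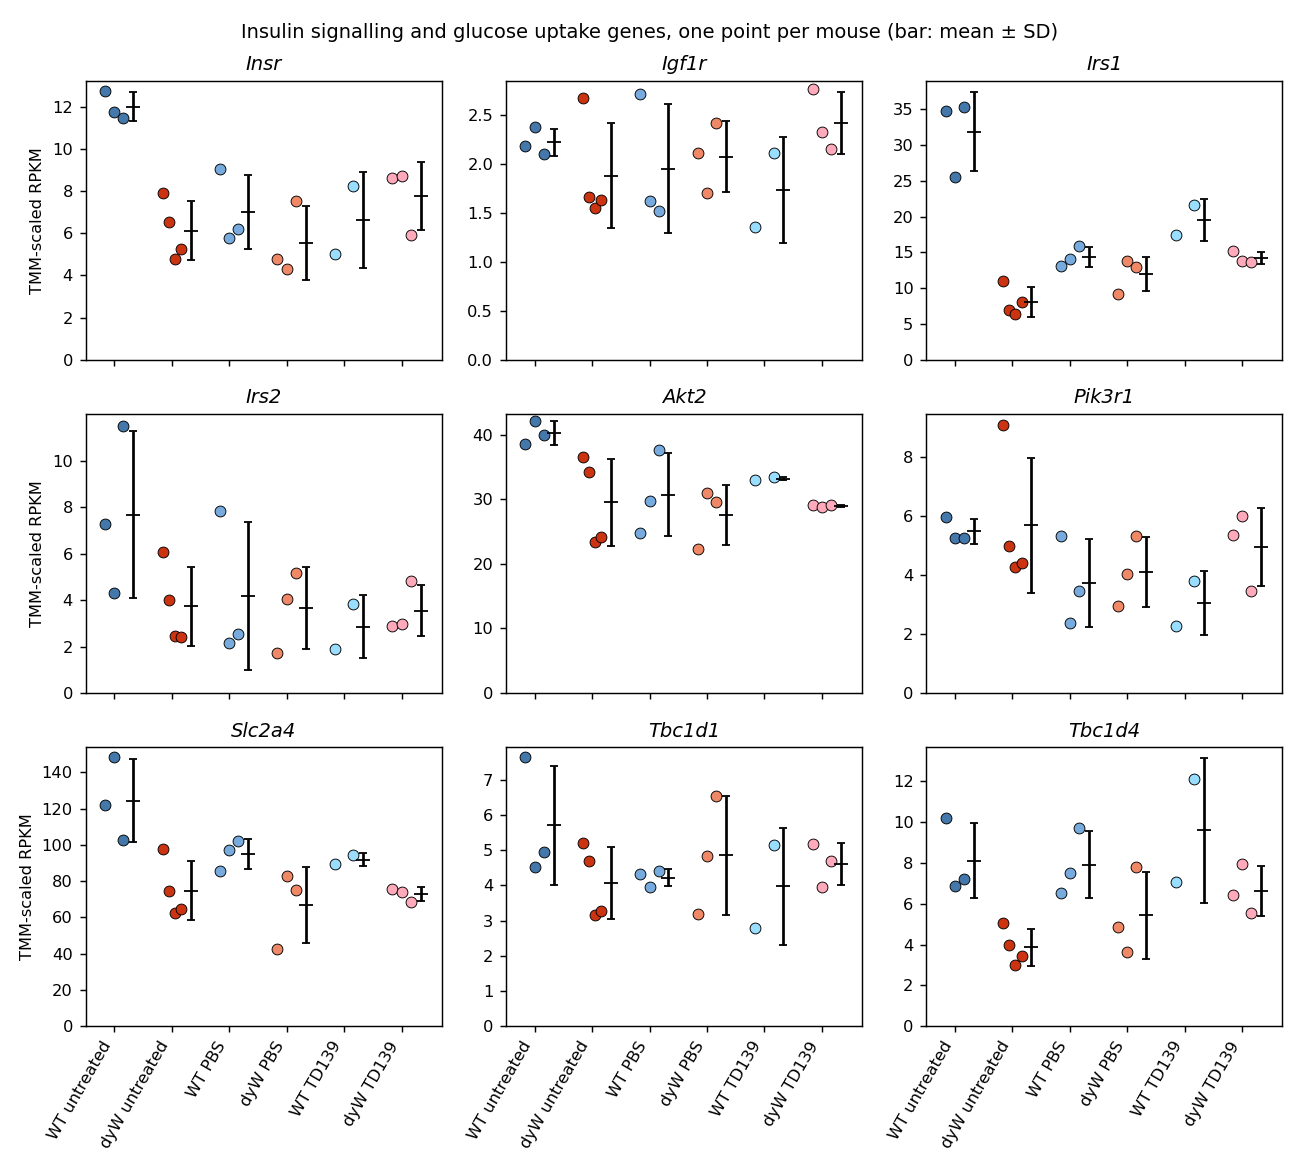
Levels of the 9 genes in each mouse. The vertical axis of each panel is TMM-scaled RPKM from 0, points are mice, and bars are group mean ± SD. In untreated mice the dyW points of Irs1 lie from 6.38 to 11.0 and the WT points from 25.5 to 35.2.

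Irs1 had the largest change of the 9. Its TMM-scaled RPKM was 34.8, 25.5 and 35.2 in untreated WT and 11.0, 6.96, 6.38 and 8.07 in untreated dyW. Every dyW library lay below every WT library, and the gap between the groups was wider than the spread within either. The log2 fold change was −1.96 (SE 0.21, 95% interval −2.44 to −1.48, edgeR adjusted p = 0.000286), which is 3.88-fold lower, and 1.82% of all genes tested had a lower value. Irs2 encodes a docking protein with the same partners, and its libraries were more scattered, at 7.26, 4.30 and 11.5 in untreated WT and 6.05, 3.99, 2.46 and 2.40 in untreated dyW. The groups overlapped, and the log2 fold change of −1.03 did not pass (SE 0.39, 95% interval −1.92 to −0.14, edgeR adjusted p = 0.0560). Irs2 passed with DESeq2 (adjusted p = 0.0173), without WT replicate 2 (adjusted p = 0.0293, edgeR) and without dyW replicate 1 (adjusted p = 0.0162, edgeR).

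Of the receptors, Insr fell and Igf1r did not pass. Insr, the insulin receptor gene, was at 12.8, 11.7 and 11.5 TMM-scaled RPKM in untreated WT and 7.92, 6.55, 4.78 and 5.26 in untreated dyW. The groups did not overlap, and the WT libraries lay close together. Its log2 fold change was −0.96 (SE 0.17, 95% interval −1.35 to −0.56, edgeR adjusted p = 0.00244). Igf1r, the receptor gene for insulin-like growth factor 1, was at 2.18, 2.37 and 2.10 in WT and 2.67, 1.66, 1.55 and 1.63 in dyW. In dyW replicate 1 it was above all WT libraries and in the other dyW libraries below them. Its log2 fold change was −0.22 (SE 0.19, 95% interval −0.66 to 0.22, edgeR adjusted p = 0.355), and without dyW replicate 1 it was −0.42 and passed (edgeR adjusted p = 0.00853).

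Neither kinase gene passed. Akt2 was at 38.6, 42.2 and 40.0 TMM-scaled RPKM in untreated WT and 36.5, 34.2, 23.4 and 24.1 in untreated dyW. The dyW libraries lay below the WT libraries and formed a higher and a lower pair. Its log2 fold change was −0.43 (SE 0.18, 95% interval −0.85 to −0.011, edgeR adjusted p = 0.0816), −0.14 without dyW replicates 3 and 4, and −0.52 and past the threshold without dyW replicate 1 (edgeR adjusted p = 0.0360). Pik3r1 encodes the main regulatory subunit of phosphoinositide 3-kinase. It was at 5.98, 5.25 and 5.25 in WT and 9.10, 4.99, 4.26 and 4.41 in dyW. The high value was again dyW replicate 1, the other dyW libraries lay below WT, and the log2 fold change was 0.066 (SE 0.26, 95% interval −0.52 to 0.65, edgeR adjusted p = 0.845).

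The transporter gene and the gene for its AKT-responsive brake each fell by edgeR. Slc2a4 was at 122, 149 and 103 TMM-scaled RPKM in untreated WT and 97.7, 74.5, 62.7 and 64.5 in untreated dyW. The groups were separate by a narrow margin, between dyW replicate 1 and WT replicate 3. Slc2a4 had a log2 fold change of −0.72 (SE 0.20, 95% interval −1.17 to −0.27, edgeR adjusted p = 0.0163). This call was lost without WT replicate 2 (adjusted p = 0.0662), without dyW replicate 3 (0.0537) and without dyW replicates 3 and 4 (log2 fold change −0.48, adjusted p = 0.111). Tbc1d4 encodes the GTPase-activating protein also known as AS160. It was at 10.2, 6.89 and 7.22 in WT and 5.07, 3.99, 2.99 and 3.42 in dyW. The groups did not overlap, and the log2 fold change was −1.05 (SE 0.20, 95% interval −1.52 to −0.59, edgeR adjusted p = 0.00325). Its paralog Tbc1d1, which AMP-activated protein kinase (AMPK) also phosphorylates, was at 7.65, 4.51 and 4.94 in WT and 5.21, 4.68, 3.14 and 3.28 in dyW. The groups overlapped, and the log2 fold change of −0.47 did not pass (SE 0.24, 95% interval −1.01 to 0.072, edgeR adjusted p = 0.130). In TMM-scaled levels 5 of the 9 genes had all dyW libraries below all WT libraries, beside 28.0% of all genes tested. None had them all above, beside 25.9%.

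**Figure D2:**
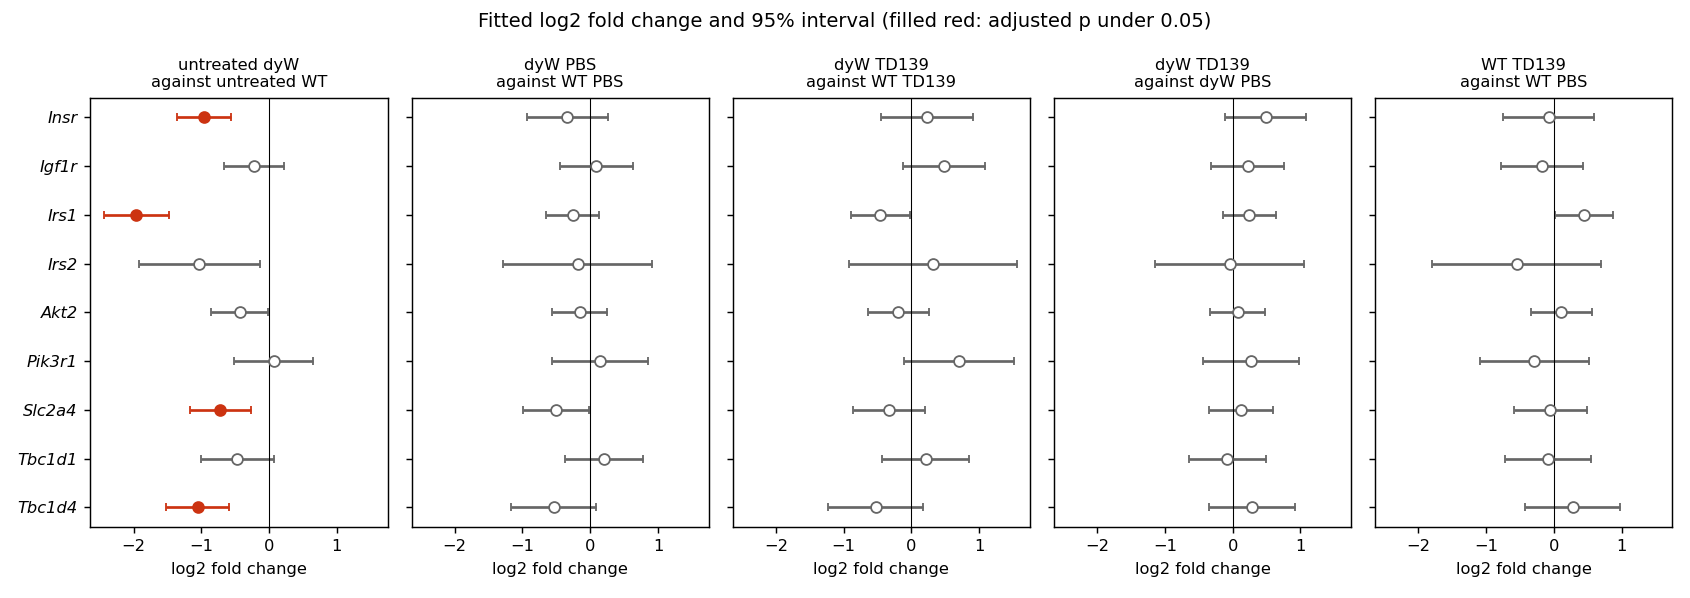
Fitted log2 fold changes (horizontal axis) of the 9 genes in 5 comparisons, with 95% intervals from edgeR. Filled red points passed an adjusted p of 0.05, and all 4 of them (Insr, Irs1, Slc2a4 and Tbc1d4) are in the untreated comparison.

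These values depend on the scaling. The 20 most abundant genes took 35.1% to 38.7% of exon reads in untreated WT and 22.8% to 29.1% in untreated dyW. The TMM factors behind the TMM-scaled levels, computed over all 18 libraries, were 0.796 to 0.926 and 1.15 to 1.35 in these groups. The untreated test computed its own TMM factors from the untreated libraries alone. In deposited RPKM, which has no such factor, Irs1 was still separate, at 18.9 to 29.8 in WT and 7.99 to 11.99 in dyW. Insr was separate by a narrow margin, between 8.69 in WT replicate 3 and 8.59 in dyW replicate 1. Slc2a4, Tbc1d4 and Akt2, separate in TMM-scaled levels, overlapped in deposited RPKM. Slc2a4 was at 77.8 to 110 in WT and 73.8 to 106 in dyW, and Tbc1d4 at 5.12 to 8.75 and 3.77 to 5.51. For Akt2, dyW libraries lay both above and below all WT libraries. By limma on log2(RPKM + 0.1) the median of all genes moved from 0.03 to 0.51, and 85.5% of its calls were higher. On that scale Irs1 (−1.42, adjusted p = 0.000660) and Insr (−0.43, adjusted p = 0.0492) passed, and Tbc1d4 (−0.50, adjusted p = 0.0727) and Slc2a4 (−0.18, adjusted p = 0.403) did not. By limma on log2(RPKM + 1) Irs1 alone passed, at −1.33 (adjusted p = 0.000891). Taken against the median of all genes, Slc2a4 was at −0.75 by TMM and −0.69 by limma on log2(RPKM + 0.1), Insr at −0.99 and −0.94, Tbc1d4 at −1.08 and −1.01, and Irs1 at −1.99 and −1.92. By limma on log2(RPKM + 1), where the median of all genes was 0.29, the relative values were smaller, at −0.46 for Slc2a4, −0.67 for Insr, −0.72 for Tbc1d4 and −1.62 for Irs1. These lie farther from the TMM values than the standard error of each gene.

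**Figure D3:**
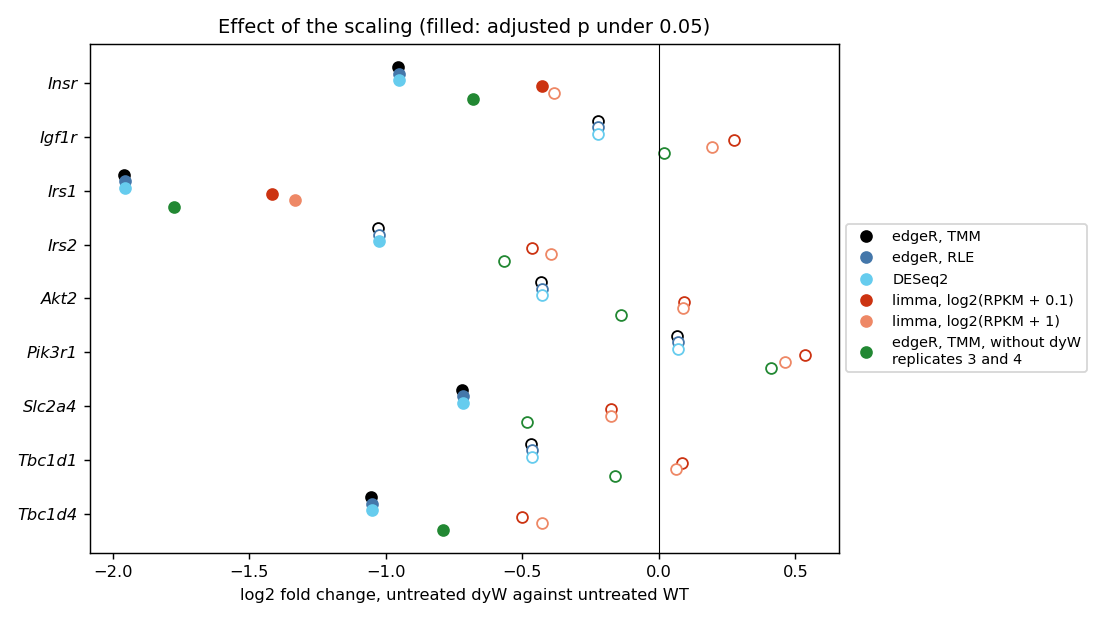
Log2 fold changes of untreated dyW against untreated WT (horizontal axis) for the 9 genes under 6 ways of fitting. Filled points passed an adjusted p of 0.05. The limma points, from RPKM without TMM factors, lie to the right of the others for every gene, and Irs1 is filled in all 6.

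Some markers of other cell types moved with genotype in the same libraries, where 24.7% of all genes rose and 25.1% fell. The sums below are of deposited RPKM, without TMM factors. In untreated dyW 6 of 7 macrophage markers tested rose, with sums of 161 to 258 RPKM against 27.4 to 39.6 in WT. Regenerating fibre markers rose in 5 of 6 (152 to 268 against 12.8 to 25.2), fibroblast markers in 4 of 6 (1183 to 2107 against 554 to 669), Schwann cell markers in 4 of 4 (46.2 to 94.7 against 8.36 to 19.4) and endothelial markers in 3 of 5 (75.5 to 91.4 against 36.9 to 47.8). Adipocyte markers, from a cell type that also uses insulin and GLUT4, rose in 2 of 6. Their sums overlapped between the groups (736 to 4144 against 205 to 846), with the highest sum in dyW replicate 1. Slow fibre markers rose in 3 of 6 (61.5 to 2048 against 0.784 to 109), and mature fibre markers fell in 3 of 6 (30360 to 38197 against 40581 to 51347). No marker of these lists was at 0 in any library. The part of these markers in the changes of the 9 genes was not tested. Without dyW replicates 3 and 4, the libraries with high slow fibre markers, Irs1 was at −1.77 (edgeR adjusted p = 0.00342), Tbc1d4 at −0.79 (0.0263) and Insr at −0.68 (0.0105). Slc2a4 was at −0.48 and did not pass (edgeR adjusted p = 0.111). Each of these values was smaller in size than with all libraries.

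Beyond the 9 genes, 90 genes of the same pathway were grouped in 8 lists, and 89 could be tested. In untreated dyW 20 of them rose and 28 fell, with a median of −0.17, where 24.7% of all genes rose and 25.1% fell and the median was 0.03. These shares are also the background of the counts for each list that follow, and lists were not tested against each other. Ligands and binding proteins rose in 6 of 9 and fell in 1 (median 0.90). Igf2, a growth factor of fetal and regenerating muscle, rose from 10.7 ± 4.16 to 67.8 ± 6.62 deposited RPKM (log2 fold change 2.14, edgeR adjusted p = 0.000361). Igfbp4 (2.09) and Igfbp7 (1.01), which bind insulin-like growth factors, rose as well, and Igfbp5 fell from 167 ± 58.1 to 59.0 ± 17.4 deposited RPKM (−2.08). Receptor adaptors and brakes rose in 5 of 16 and fell in 2 (median 0.10). The rises included Enpp1, encoding a membrane inhibitor of the insulin receptor (1.14), and Ptpn1, encoding a phosphatase that switches the receptor off (0.59), and Ptpn11, encoding the phosphatase SHP2, fell (−0.83).

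From phosphoinositide 3-kinase to AKT 2 of 18 rose and 7 fell (median −0.22), a split that turned to 7 higher and 1 lower (median 0.32) by limma on log2(RPKM + 0.1). Pik3ca, the catalytic partner of the Pik3r1 product, fell (−0.95), as did Rictor, a subunit of the mTOR complex that phosphorylates AKT (−1.38), and Akt1 rose (0.75). Of 8 genes for AKT targets 4 fell and none rose (median −0.52), against 3 lower and 1 higher by that limma fit (median 0.0083). Tsc1 (−1.42), Foxo4 (−1.04) and Gsk3b (−0.92) were among the 4. Of 7 genes for transcription factors and coactivators of Slc2a4 4 fell and none rose (median −0.59), against 2 lower and 2 higher by limma (median −0.053). Ppargc1a (−1.15), Mef2c (−1.08) and Mef2a (−0.84) were among the 4. GLUT4 vesicle traffic was mixed, with 5 of 16 higher and 6 lower (median 0.061), against 9 higher and 2 lower by limma (median 0.61). Lnpep, encoding the aminopeptidase that travels in GLUT4 vesicles, fell (−2.34), Snap23 fell (−0.81), and Myo5a (0.82) and Rab8a (0.67) rose.

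Among other glucose transporters and hexokinases 2 of 7 tested rose and 1 fell (median 0.07). Hk1, the hexokinase of many non-muscle tissues, rose from 1.32 ± 0.207 to 5.01 ± 1.68 deposited RPKM (1.36), and Slc2a1, encoding the basal transporter GLUT1, rose from 1.24 ± 0.447 to 4.05 ± 0.535 (1.17). Slc2a12 fell (−1.78). AMPK subunits fell in 3 of 8 and rose in none (median −0.15), beside 25.1% of all genes lower, and by limma on log2(RPKM + 0.1) 3 were lower and 4 higher (median 0.40). Prkab2 fell from 90.0 ± 21.2 to 21.8 ± 2.39 deposited RPKM (−2.60), Prkaa2 from 45.7 ± 2.51 to 14.9 ± 3.51 (−2.16) and Prkag3 from 47.3 ± 15.7 to 18.7 ± 6.02 (−1.91). These 3 encode a beta, an alpha and a gamma subunit, and the gamma subunit of Prkag3 is found mainly in skeletal muscle. By limma on log2(RPKM + 0.1) the split over the 89 genes was 41 higher and 14 lower, against 20 higher and 28 lower by edgeR. Of the genes called by edgeR, Akt1s1, Gab1 and Stxbp3 changed sign. Of the other named genes, Pik3ca, Mef2a and Snap23 kept their sign but did not pass. Further lower calls, of genes not named here, were lost as well.

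**Figure D4:**
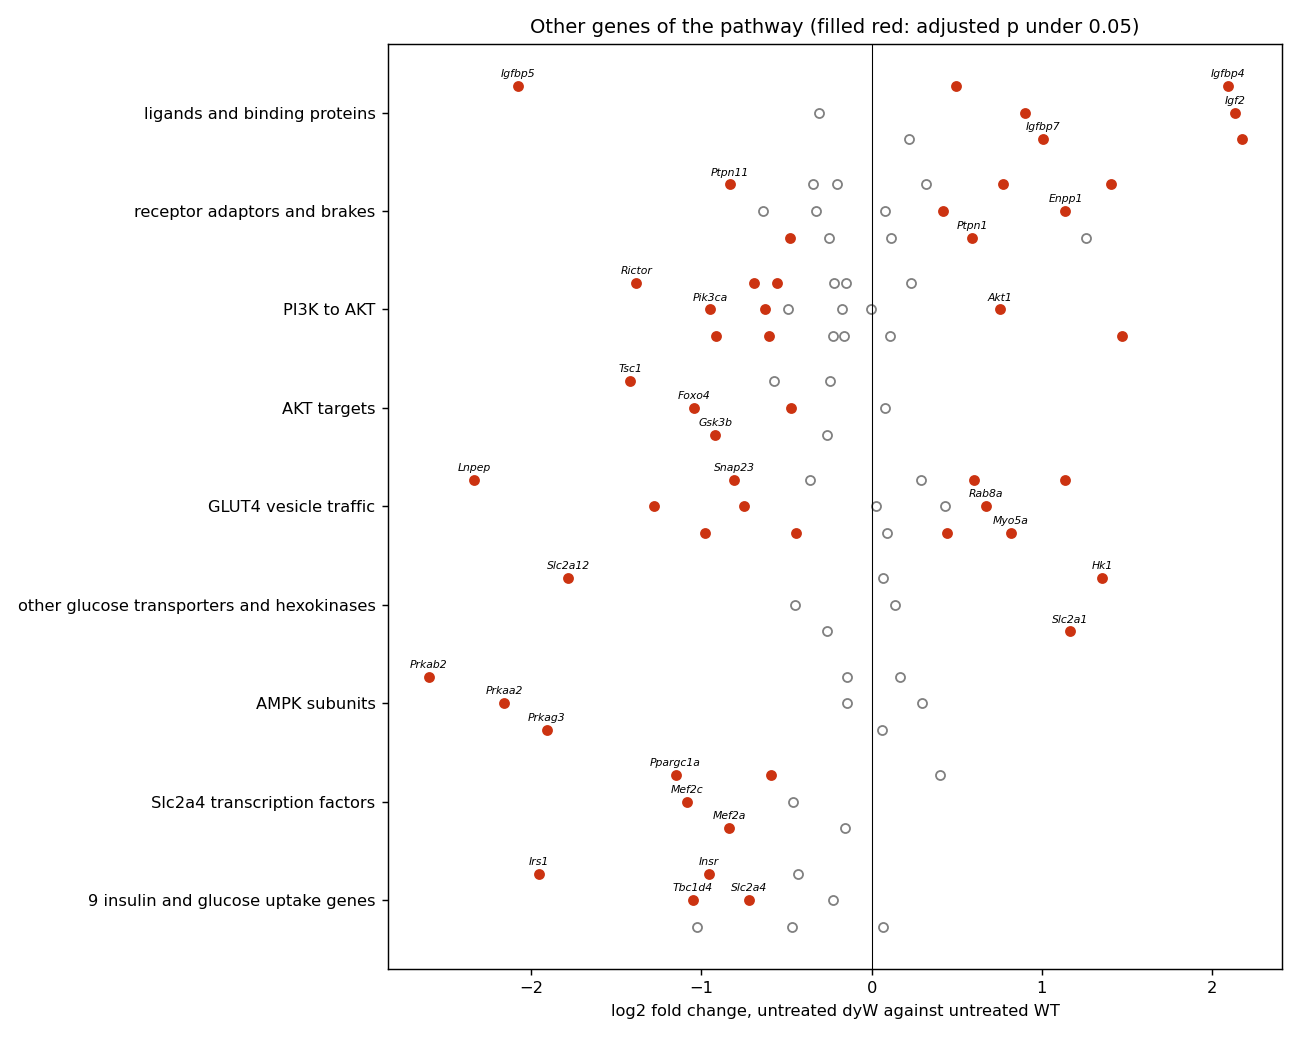
Log2 fold changes of untreated dyW against untreated WT (horizontal axis) for the genes of 8 pathway lists and the 9 genes, 1 point per gene. Filled red points passed an adjusted p of 0.05 by edgeR, and the named ones range from −2.60 for Prkab2 to 2.14 for Igf2.

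The next comparison takes the same question to the vehicle-treated mice of the second cohort. None of the 9 genes passed between dyW PBS and WT PBS, where 2.68% of 15331 genes did (368 higher, 43 lower), and 1 of the 9 had an unadjusted p under 0.05, beside 15.1% of all genes. DESeq2 also called 0 of the 9. Slc2a4 was at 85.8, 97.2 and 102 TMM-scaled RPKM in WT PBS and 42.8, 82.8 and 75.0 in dyW PBS. The dyW libraries lay below the WT libraries, with replicate 1, the shallowest library, far below the rest, and 6.56% of all genes were separate in this direction. Slc2a4 had a log2 fold change of −0.51 (95% interval −0.99 to −0.025, edgeR adjusted p = 0.304) and of −0.27 without dyW PBS replicate 1. Tbc1d4 was at 6.53, 7.53 and 9.72 in WT PBS and 4.88, 3.63 and 7.81 in dyW PBS. The groups overlapped through dyW PBS replicate 3, and the log2 fold change was −0.54 (95% interval −1.17 to 0.090, edgeR adjusted p = 0.414).

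Irs1 was at 13.1, 14.0 and 15.9 TMM-scaled RPKM in WT PBS and 9.26, 13.8 and 12.9 in dyW PBS. These groups overlapped, and the log2 fold change was −0.26 (95% interval −0.65 to 0.13, edgeR adjusted p = 0.547). Insr was at 9.02, 5.78 and 6.18 in WT PBS and 4.78, 4.29 and 7.54 in dyW PBS (log2 fold change −0.34, 95% interval −0.94 to 0.26, edgeR adjusted p = 0.618). In WT PBS replicate 1, the library with high slow fibre and Schwann cell markers, Insr, Igf1r, Irs2 and Pik3r1 were each above the other WT PBS libraries. For Irs2 that library was at 7.82 beside 2.16 and 2.52, and the log2 fold change of Irs2 moved from −0.19 to 0.65 without it. The log2 fold change of Insr moved from −0.34 to −0.11 without the same library. The other genes, Akt2, Igf1r, Pik3r1 and Tbc1d1, had log2 fold changes from −0.15 to 0.20. Of the 89 pathway genes, 2 passed: Igf2 rose from 58.5 ± 8.61 to 159 ± 38.3 deposited RPKM (1.14, edgeR adjusted p = 0.0260) and Hk1 from 1.56 ± 0.562 to 3.56 ± 0.417 (0.92, edgeR adjusted p = 0.0319). The Igf2 call was lost without dyW PBS replicate 1 or 2 or WT PBS replicate 2, and the Hk1 call without any of these or WT PBS replicate 3.

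TD139 was compared with PBS within each genotype. In dyW mice none of the 9 genes passed, and 0.0% of 15331 genes did, with 583 genes (3.8%) at an unadjusted p under 0.05 by edgeR and 4 genes called by DESeq2, none of them among the 9. The groups overlapped for all 9 genes, while 7.18% of all genes lay apart above and 7.08% below. Log2 fold changes of the 9 genes ranged from −0.077 for Tbc1d1 to 0.49 for Insr. Insr was at 8.64, 8.73 and 5.92 TMM-scaled RPKM in dyW TD139, beside 4.78, 4.29 and 7.54 in dyW PBS. The groups overlapped through the third library of each, and the 95% interval was −0.11 to 1.09 (edgeR adjusted p = 0.888). Slc2a4 was at 75.8, 74.1 and 68.8 in dyW TD139, within the range of dyW PBS (log2 fold change 0.12, 95% interval −0.36 to 0.60). Irs1 was at 15.2, 13.9 and 13.6 (0.25, 95% interval −0.15 to 0.64), and Tbc1d4 at 6.43, 7.96 and 5.53 (0.29, 95% interval −0.34 to 0.92).

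In WT mice, with 2 TD139 libraries against 3 with PBS, again none of the 9 genes passed and 0.0% of all genes did (304, or 1.98%, at an unadjusted p under 0.05 by edgeR, and 3 called by DESeq2, none of the 9). Irs1 was at 17.4 and 21.6 TMM-scaled RPKM in WT TD139, both above the 13.1 to 15.9 of WT PBS. Its log2 fold change was 0.45 (95% interval 0.01 to 0.88), with an edgeR adjusted p of 1. For the other 8 genes values ran from −0.54 for Irs2 to 0.28 for Tbc1d4 and the groups overlapped, while 4.82% of all genes lay apart above and 4.23% below. Between the TD139 groups, none of the 9 genes passed where 1.04% of all genes did, and Irs1 was at −0.46 in dyW against WT (95% interval −0.89 to −0.022, edgeR adjusted p = 0.288), with no overlap between the groups. Slc2a4 (−0.33) and Akt2 (−0.19) were also lower in every dyW TD139 library than in both WT TD139 libraries, but by limma on log2(RPKM + 0.1) their values were 0.011 and 0.15. Igf1r was higher in every dyW TD139 library (0.48), and 17.8% of all genes lay apart below and 20% above. The TD139 effects in dyW and WT share no library, and their difference passed for none of the 9 genes and for 0.0% of all genes (294, or 1.92%, at an unadjusted p under 0.05 by edgeR, and 1 called by DESeq2). That difference was at most 0.57, for Insr (95% interval −0.34 to 1.47).

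The genotype effect of the PBS mice was set against that of the untreated mice in a fit of all 18 libraries. Irs1 was the only one of the 9 genes whose genotype effects differed (1.71, SE 0.28, 95% interval 1.12 to 2.31, edgeR adjusted p = 0.0266), where 1.72% of 15771 genes did, 1.2% with a positive difference. The difference came with a higher level in untreated WT, at 25.5 to 35.2 TMM-scaled RPKM, than in WT PBS (13.1 to 15.9). The TD139 groups, which have no part in this difference, were at 17.4 to 21.6 in WT and 13.6 to 15.2 in dyW. Untreated dyW (6.38 to 11.0) and dyW PBS (9.26 to 13.8) overlapped. Age label, handling and cohort changed together between these mice and cannot be told apart. The value lay between 1.35 and 1.87 in the 21 alternatives, and the call was lost in 7 of them (adjusted p up to 0.0779): without both dyW untreated replicates 3 and 4, and without any of WT untreated replicate 3, dyW untreated replicates 3 or 4, WT PBS replicate 1 and dyW PBS replicates 2 or 3. For the other 8 genes the difference was 0.092 to 0.85, and none passed (edgeR adjusted p of 0.297 or more). Tbc1d4, for example, was at 0.52 (95% interval −0.29 to 1.34) and Slc2a4 at 0.23 (95% interval −0.42 to 0.87), intervals that hold both no difference and one as large as the untreated effect of Slc2a4.

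**Figure D5:**
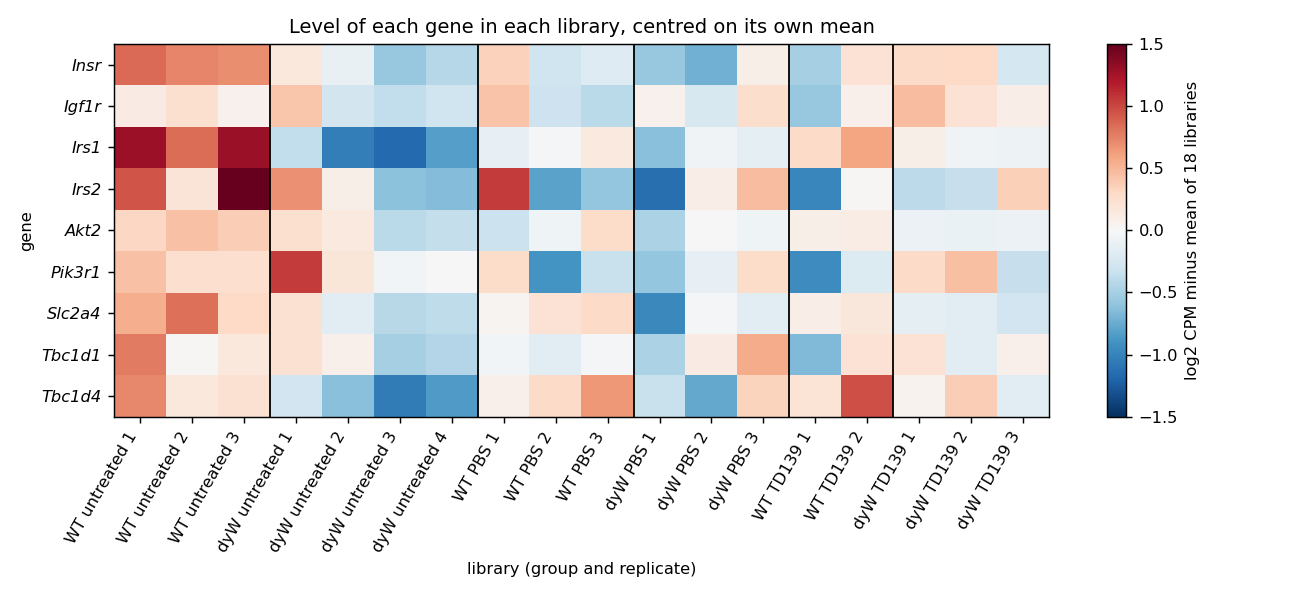
Log2 CPM (counts scaled to library size after TMM) of the 9 genes in the 18 libraries, each gene centred on its own mean, with libraries in columns by group. Irs1 is highest in the 3 untreated WT libraries (0.83 to 1.30 above its mean) and its 3 lowest libraries are untreated dyW replicates 2, 3 and 4.

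Over the 18 libraries the 9 genes varied to unequal degrees. The highest TMM-scaled level was 6.67 times the lowest for Irs2, 5.52 times for Irs1, 4.06 times for Tbc1d4, 3.98 times for Pik3r1, 3.47 times for Slc2a4, 2.98 times for Insr, 2.73 times for Tbc1d1, 2.05 times for Igf1r and 1.89 times for Akt2. The range of Irs1 ran along the groups, whereas that of Irs2 was wide within them, with a coefficient of variation of 31.3% to 76.1% in each group. Pairs of genes were compared by the root mean square difference between their centred log2 levels over the 18 libraries, a description in which all genes share the same libraries and scaling. Akt2 and Slc2a4 were the closest pair of the 9 (0.21), and Irs2 and Tbc1d4 the farthest apart (0.81). Irs1 and Irs2 differed by 0.70, and Tbc1d1 and Tbc1d4 by 0.50. Among all genes with an established symbol and a mean of at least 1 RPKM, the closest to Slc2a4 was Sun2 (0.13), to Akt2 Slc25a44 (0.11), to Insr Kat2b (0.12), to Igf1r Mier1 (0.13) and to Pik3r1 Lrrc58 (0.17). Irs1 was closest to Lgr4 (0.22), Tbc1d4 to Tarbp1 (0.22) and Tbc1d1 to Arnt (0.22), and Irs2 had no gene nearer than Crim1 (0.46).

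The authors' deposited table for untreated dyW against WT gave log2 fold changes of −1.98 for Irs1, −1.08 for Tbc1d4, −1.05 for Irs2, −0.98 for Insr and −0.74 for Slc2a4, and these 5 genes passed its FDR at 0.05. Irs2, with an FDR of 0.00312 in the authors' deposited table, was the gene that did not pass by edgeR here. The share of all genes past that FDR in the authors' table was not counted, and by edgeR 49.8% of all genes passed. In the authors' deposited table for TD139 in dyW mice none of the 9 genes passed, and the smallest FDR was 0.757, for Insr.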

How the data were processed

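Bulk RNA-seq counts of quadriceps from 18 mice were analysed. Per the labels' protocols, RNA was extracted with TRIzol and made into libraries with a stranded mRNA kit, and per the submitters' processing notes the build is mm10; the aligner and counter are not given in the sources used here. Per the file headers, the authors deposited total and unique exon reads as counts, with RPKM and TPM values per gene, and tables of their own comparisons with log2 fold changes, p-values, signed fold changes and a largest group mean, both of which are treated as a score. TPM and these score columns were not used further. Each library carries its own animal number, so replicates are separate mice and none were paired.

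The main test was the quasi-likelihood F-test of edgeR 4.0.16 (R 4.3.3) on total exon reads, using TMM scaling and filterByExpr with minimum count 10 and minimum total 15, with Benjamini-Hochberg adjustment over all genes tested and a threshold of 0.05. All 9 genes passed the filter in every comparison. Untreated mice were fitted by themselves, the mice given PBS or TD139 as 4 groups, and the difference between cohorts over 18 libraries. DESeq2 1.42.0 and limma 3.58.1 on log2(RPKM + 0.1) and log2(RPKM + 1) were alternatives, with others given at the end. Scripts were tested on simulated data. Log2 CPM used a prior count of 2. The coefficient of variation and the root mean square differences are descriptions.

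From each pathway list, up to 3 genes past the threshold with the smallest p in untreated mice were named, plus list genes that passed elsewhere and, chosen after their values were seen, list genes that changed sign. The 9 genes, lists and motifs were chosen with earlier results of these data known.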

Additional observations from a re-analysis of the deposited data

Results flagged for a closer look

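In untreated dyW mice, replicate 1 stood apart from the other 3 libraries in the level of Igf1r (2.67 TMM-scaled RPKM against 1.55 to 1.66) and of Pik3r1 (9.10 against 4.26 to 4.99). The gap to the nearest library made up 0.905 of the group's range for Igf1r and 0.849 for Pik3r1, above the critical ratio for 4 samples. Each of the 9 genes was examined in this group, the only one with 4 mice, and chance gives such a gap in about 1 of 20 groups. The same library had the highest adipocyte marker sum, 4144 RPKM, and its part in these levels was not tested.

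The genotype effect differed between PBS and untreated mice for Irs1 (1.71, edgeR adjusted p = 0.0266) and for 4 of 89 pathway genes, where 1.72% of 15771 genes passed. The levels that follow are deposited RPKM, and the differences are from the TMM-scaled fit. Prkab2 (1.71, edgeR adjusted p = 0.0369) was at 90.0 ± 21.2 RPKM in untreated WT and 21.8 ± 2.39 in untreated dyW, and at 43.0 ± 8.72 in WT PBS and 28.2 ± 3.95 in dyW PBS. Igfbp5 (1.79, edgeR adjusted p = 0.0457) was at 167 ± 58.1 and 59.0 ± 17.4 in untreated WT and dyW, and at 145 ± 36.1 and 145 ± 15.8 in WT PBS and dyW PBS. Igfbp7 (−0.93, edgeR adjusted p = 0.0493) was at 47.1 ± 3.96 and 139 ± 13.1 in untreated WT and dyW, and at 103 ± 17.5 and 134 ± 42.7 in WT PBS and dyW PBS. Rab8a (−0.61, edgeR adjusted p = 0.0460) was at 2.36 ± 0.134 and 5.52 ± 0.665 in untreated WT and dyW, and at 2.96 ± 0.319 and 3.76 ± 0.447 in WT PBS and dyW PBS. Of the 21 alternatives, the call was lost in 7 for Irs1, in 10 for Prkab2 and in 14 each for Igfbp5, Igfbp7 and Rab8a. Leaving out single libraries gave 1.51 to 1.96 for Prkab2, 1.46 to 2.08 for Igfbp5, −1.12 to −0.78 for Igfbp7 and −0.75 to −0.56 for Rab8a.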

How the results depend on the processing

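No paired analysis was possible because each library carries its own animal number and the replicate numbers only follow accession order. In untreated mice 4 of the 9 genes passed, and 3 to 7 did with single libraries left out, 2 by limma on log2(RPKM + 0.1) and 1 by limma on log2(RPKM + 1). Over all genes 7395 of 14846 passed there, and 5792 to 7713 of 14577 to 15188 with single libraries left out. By limma on log2(RPKM + 0.1) 7636 of 14846 genes were called higher and 1293 lower, and on log2(RPKM + 1) 7434 higher and 1288 lower. The cause of these shifts was not tested. Over all genes, 411 passed between dyW PBS and WT PBS, against 864 with DESeq2, 952 and 814 with the limma fits, 656 with all 18 libraries in 1 fit, and 125 to 601 with single libraries left out. Between the TD139 groups 160 passed, against 740 with DESeq2, 320 with no low-count filter, 552 and 296 with limma, 431 with all 18 libraries, and 6 to 91 with libraries left out. DESeq2 called 4 genes for TD139 in dyW, 3 in WT and 1 for the difference, against 0 by edgeR. For the difference between cohorts 272 genes passed, against 1189 with DESeq2, 75 and 111 with limma, 12 without untreated dyW replicates 3 and 4, and 0 to 637 with libraries left out. Among the 9 genes, 1 passed there, 0 without those replicates, and 0 to 1 with libraries left out.

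No value past the threshold among the 9 genes changed sign. With limma on log2(RPKM + 0.1) and on log2(RPKM + 1), signs changed in untreated mice for Igf1r (0.28, 0.19), Akt2 (0.090, 0.088) and Tbc1d1 (0.083, 0.064), in PBS mice for Irs1 (0.020, 0.019), Irs2 (0.20, 0.13) and Akt2 (0.15, 0.14), and between TD139 groups for Akt2 (0.15, 0.15) and Slc2a4 (0.011, 0.010). They also changed for Akt2 in the difference of TD139 effects (0.0039, 0.0040), for Pik3r1 (−0.075, −0.11) and Slc2a4 (−0.087, −0.085) between cohorts, and for Irs2 with TD139 in dyW (0.012, first fit). Without untreated dyW replicates 3 and 4, Igf1r was at 0.017 in untreated mice, and Akt2 (−0.043), Pik3r1 (−0.29) and Slc2a4 (−0.051) changed sign between cohorts. With sex as a term, Tbc1d1 was at −0.0044 in the difference of TD139 effects.

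Leaving out single libraries also moved values across 0. In PBS mice the ranges were −0.29 to 0.018 for Akt2, −0.061 to 0.40 for Igf1r, −0.52 to 0.65 for Irs2, −0.098 to 0.50 for Pik3r1 and −0.069 to 0.43 for Tbc1d1. For TD139 in dyW they were −0.057 to 0.15 for Akt2, −0.38 to 0.29 for Irs2, −0.11 to 0.29 for Slc2a4 and −0.30 to 0.20 for Tbc1d1. For TD139 in WT they were −0.019 to 0.28 for Akt2, −0.53 to 0.14 for Igf1r, −0.48 to 0.24 for Insr, −1.12 to 0.29 for Irs2, −0.70 to 0.065 for Pik3r1, −0.12 to 0.0061 for Slc2a4, −0.59 to 0.29 for Tbc1d1 and −0.16 to 0.61 for Tbc1d4. Between the TD139 groups they were −0.086 to 0.63 for Insr, −0.10 to 0.89 for Irs2 and −0.16 to 0.72 for Tbc1d1. For the difference of TD139 effects they were −0.21 to 0.092 for Akt2, −0.34 to 1.08 for Irs2, −0.064 to 0.37 for Slc2a4, −0.37 to 0.52 for Tbc1d1 and −0.32 to 0.45 for Tbc1d4. Between cohorts they were −0.15 to 0.44 for Pik3r1 and −0.069 to 0.46 for Slc2a4, and in untreated mice −0.23 to 0.22 for Pik3r1. Where WT TD139 was left with 1 mouse, that mouse was assumed to vary like the other groups. In counts simulated for dyW TD139 against dyW PBS (15071 genes), 45% of genes changed by 1 on the log2 scale and 95% of those changed by 2 were called. The changed genes, 100 for each size, excluded those with low counts. Counts were drawn gene by gene, with no shift shared by the genes of a library. These shares need not hold for the real libraries.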

Other observations

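Lnpep, whose product travels in GLUT4 vesicles, was noticed in the TD139 groups after its values were seen. It was at 5.00 and 7.39 deposited RPKM in dyW TD139 replicates 1 and 2 and at 1.15 in replicate 3, beside 0.88, 0.79 and 1.22 in dyW PBS. The log2 fold change was 2.27 (SE 0.63, 95% interval 0.90 to 3.65) and did not pass (edgeR adjusted p = 0.888). In untreated WT mice it was at 5.23, 2.62 and 4.35 RPKM, and in WT PBS at 1.38, 0.42 and 1.11.

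Igf2 was at 6.31 to 14.6 deposited RPKM in untreated WT and at 53.5 to 68.5 in WT PBS, groups that differ in age label and handling. Irs1 ran the other way, at 18.9 to 29.8 deposited RPKM in untreated WT and 10.9 to 12.2 in WT PBS. Neither difference between WT cohorts was tested.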
